A study of Mus musculus with 656 samples.

Results

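Icam1 and Vcam1 are the genes of the adhesion molecules ICAM-1 and VCAM-1, and they were taken by symbol, through their Ensembl identifiers, as 2 of the 22070 genes of the deposited count table. The counts came from 3T3 cells, an established mouse embryonic fibroblast line grown in Dulbecco's medium with calf serum. Polyadenylated RNA was read by TagSeq, which counts fragments from the 3′ ends of transcripts. SC-514, which selectively blocks the kinase IKKβ, was present in the medium for 1 h beforehand, and its concentrations were 0, 25, 50 and 100 µM. The stimulus, IL-1β (1 ng/ml) in one arm and TNF-α (10 ng/ml) in the other, lasted 15, 30, 60, 120 or 360 min. With 1 group that had neither stimulus nor inhibitor, there were 41 groups of 4 libraries. The stated question of the series was how selective inhibition of IKKβ changes NF-κB transcription under each stimulus. No group had inhibitor alone, the vehicle of the 0 µM groups is not stated, and the unstimulated group was sampled at time 0 only.

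ICAM-1 and VCAM-1 are cell surface proteins of the immunoglobulin superfamily. ICAM-1 is the ligand of leukocyte integrins that contain the β2 chain, and VCAM-1 is the ligand of integrins that contain the α4 chain. Both hold leukocytes on inflamed endothelium, and fibroblasts carry them too, where they anchor infiltrating leukocytes in tissue. IKKβ phosphorylates the IκB proteins that keep NF-κB in the cytoplasm, and NF-κB is a textbook activator of both genes.

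Icam1 (ENSMUSG00000037405) lies on the plus strand of chromosome 9 at 21015985 to 21028817 in GRCm38, and Vcam1 (ENSMUSG00000027962) lies on the minus strand of chromosome 3 at 116109949 to 116129688. The RefSeq promoter table, on GRCm38.p6, holds Icam1 and has no entry for Vcam1. The Icam1 window is chr9:21015690-21015989, read on the plus strand, with 250 bases before and 50 bases after the RefSeq start. It is shown because the series tests a kinase upstream of NF-κB, and capitals mark the motif matches described next.
Icam1 promoter: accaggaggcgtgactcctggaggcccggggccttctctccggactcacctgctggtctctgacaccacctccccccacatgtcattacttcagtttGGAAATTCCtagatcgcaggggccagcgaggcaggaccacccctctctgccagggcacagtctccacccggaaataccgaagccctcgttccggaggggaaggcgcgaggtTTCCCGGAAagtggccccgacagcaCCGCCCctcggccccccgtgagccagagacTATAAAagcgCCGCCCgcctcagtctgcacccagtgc

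On either strand, the window held 1 match to a 9-base NF-κB form, GGAAATTCC at -153 to -145. That form was searched as GG, a purine, any pair of bases, a pair of pyrimidines and CC, and 28.7% of the 32851 RefSeq promoters of this length hold it. The STAT form TTCNNNGAA matched once, at -42 to -34, and stands in 10.0% of promoters. TATAAA matched once, at 14 to 19 after the RefSeq start and upstream of the GENCODE start, and stands in 13.6% of promoters. The GC box GGGCGG matched at 2 places and stands in 35.7% of promoters. The AP-1 form TGANTCA (9.30% of promoters) and the interferon regulatory factor form GAAANNGAAA (3.44% of promoters) had no match. No match overlapped another. A match describes the letters only.

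The 3′ untranslated regions, whose AUUUA pentamers are known from short-lived cytokine transcripts, were also searched. Icam1 had 4 AUUUA pentamers in 871 bases (4.59 per kb) and the longest Vcam1 region had 4 in 1404 bases (2.85 per kb). The median of 10568 tested genes was 1.39 per kb, and 7.84% and 22.2% of them had at least as many per kb as Icam1 and Vcam1. Vcam1 has transcripts with different 3′ ends in GENCODE M21, at 116109949 and 116122280, and the table gives 1 count for the gene.

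Library totals were 928906 to 2469454 counts in all but 2 libraries. Number 1 of the 50 µM group at 30 min of IL-1β had 12191 counts, and number 1 of the 50 µM group at 120 min of TNF-α had 3839. These 2 libraries were kept, and means of their groups are also given without them. The labels conflict, since the prefix in the sample titles and the prefix in the descriptions point to opposite stimuli. Groups follow the label for the stimulus, which the description shares, so groups are those labelled IL-1β or TNF-α. Nothing states that the 4 libraries of a group are separate cultures, so p-values measure the spread between these libraries. Unstimulated, IL-1β and TNF-α libraries carry different column prefixes, so library set and stimulus cannot be told apart. All 9 fibroblast markers passed the filter on low counts, and their summed level was 5136 to 8773 CPM (the standard depth-scaled count, here with TMM factors) outside the 2 shallow libraries. The summed endothelial markers reached 2.32 to 42.6 CPM with 2 of 6 tested, leukocyte markers 3.42 to 33.9 CPM with 2 of 7 tested, and epithelial markers 0 to 5.22 CPM with 0 of 4 tested. The endothelial Cdh5, Kdr, Tek and Emcn and the leukocyte Adgre1 and Cd3e had a median of 0 CPM. The members that passed the filter were the endothelial Pecam1 and Vwf, with medians of 4.14 and 6.96 CPM, and the leukocyte Cd68 and Lyz2, with 4.34 and 6.34 CPM.

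Without stimulus, Icam1 was near the detection limit and Vcam1 was well expressed. Icam1 had 0, 1.73, 0.842 and 0.806 CPM in the 4 unstimulated libraries, which is 4 counts in all. In libraries of normal depth, 3 counts equal 1.18 to 3.41 CPM. Vcam1 had 274, 287, 260 and 269 CPM (mean 273 ± 11.2, SD, n = 4). At 15 and 30 min without inhibitor the Icam1 libraries still held 0 to 2.60 CPM and overlapped the unstimulated ones under both labels.

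Icam1 rose in both stimuli from 60 min on. At 60 min of IL-1β the libraries had 21.7, 5.25, 9.65 and 6.19 CPM. At 120 min they had 58.7, 37.6, 48.9 and 41.6 CPM, and at 360 min 28.2, 17.3, 20.9 and 22.6 CPM. All 12 libraries lay above every unstimulated library, and the 120 min libraries lay above those of 60 and 360 min. With TNF-α the 60 min libraries had 30.1, 16.0, 18.2 and 7.40 CPM. The 120 min libraries had 105, 84.1, 85.3 and 87.5 CPM, and those of 360 min 7.25, 5.04, 9.71 and 9.55 CPM. Number 1 was the highest library in 5 of these 6 groups, and by 360 min of TNF-α the level was back below the 120 min level in every library.

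Against the unstimulated group, Icam1 rose by 3.61 (SE 0.59, adjusted p = 8.3e-07), 5.69 (SE 0.44, adjusted p = 7.31e-24) and 4.63 (SE 0.52, adjusted p = 9.92e-14) on the log2 scale at 60, 120 and 360 min of IL-1β in edgeR's quasi-likelihood test. With TNF-α the rise was 4.34 (SE 0.55, adjusted p = 4.6e-11), 6.65 (SE 0.39, adjusted p = 7.86e-34) and 3.15 (SE 0.66, adjusted p = 0.000353) in the same edgeR test. Since these folds divide by 4 counts, the ratio of summed counts at 120 min was 57.9 (95% counting interval 22.3 to 214) for IL-1β and 113 (44.0 to 418) for TNF-α. Counting intervals cover counting error only. The 60 min values leaned on single numbers: without number 1 the log2 change was 2.56 for IL-1β and 3.50 for TNF-α, and without number 2 it was 4.37 and 4.94. Without number 2, which held 2 of the 4 unstimulated counts, the changes at 360 min were 5.28 for IL-1β and 3.83 for TNF-α, and that of IL-1β at 120 min was 6.33.

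Vcam1 also rose in both stimuli from 60 min, from its higher starting level and by smaller folds. At 60 min of IL-1β the libraries had 785, 658, 628 and 618 CPM. They had 1210, 939, 1052 and 1138 CPM at 120 min, and 1293, 1163, 1011 and 1020 CPM at 360 min. The 120 and 360 min libraries overlapped each other and lay above all 60 min libraries. With TNF-α the 60 min libraries had 900, 987, 1012 and 860 CPM. Those of 120 min had 1154, 1305, 1203 and 1160 CPM, and those of 360 min 513, 607, 577 and 636 CPM. Each of these 24 Vcam1 libraries was above the unstimulated ones, and the TNF-α libraries of 360 min lay below all those of 60 and 120 min.

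In edgeR's test Vcam1 rose by 1.30 (SE 0.11, adjusted p = 4.29e-19), 1.99 (SE 0.11, adjusted p = 4.29e-33) and 2.04 (SE 0.11, adjusted p = 6.28e-34) on the log2 scale at 60, 120 and 360 min of IL-1β, which is 2.47-, 3.98- and 4.11-fold. With TNF-α it rose by 1.78 (SE 0.11, adjusted p = 3.34e-29), 2.14 (SE 0.11, adjusted p = 6.4e-36) and 1.10 (SE 0.11, adjusted p = 7.96e-14), which is 3.44-, 4.42- and 2.14-fold. The comparisons share the unstimulated libraries. In bulk RNA, more cells with the transcript and more transcript per cell cannot be told apart. At 360 min of IL-1β, where both genes were higher, 7 of 9 fibroblast markers were called lower (median -0.30), and their summed level was 6301 to 6653 CPM beside 7651 to 7834 CPM unstimulated. At 360 min of TNF-α none of the 9 was called. Over all tested genes, 21.7% were called in either direction at 360 min of IL-1β and 5.42% at 360 min of TNF-α. At 15 and 30 min neither gene passed the test in either stimulus. The nearest was Vcam1 at 30 min of TNF-α, whose libraries (368, 302, 319 and 333 CPM) all lay above the unstimulated ones with a log2 change of 0.28 (SE 0.12, edgeR adjusted p = 0.366).

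These calls can be read against the share of the 10766 tested genes called in each comparison. For IL-1β it was 0.167% at 15 min, 0.957% at 30 min, 3.36% at 60 min, 12.5% at 120 min and 21.7% at 360 min. For TNF-α it was 0.186%, 0.659%, 5.41%, 14.2% and 5.42% at the same times.

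**Figure D1:**
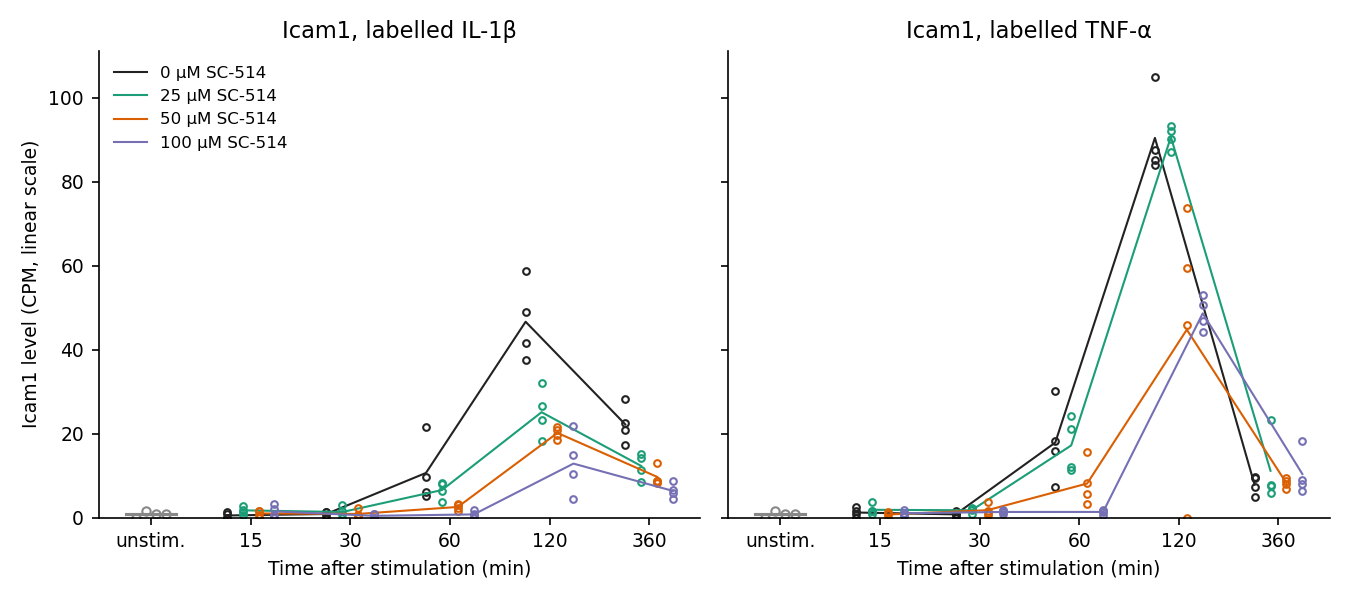
Icam1 level (CPM, linear axis) by time after stimulation for groups labelled IL-1β (left) and TNF-α (right), with the unstimulated group in grey. Circles are single libraries, lines join the means of 4 libraries and colours mark the SC-514 concentration. The TNF-α libraries at 120 min without inhibitor sit between 84.1 and 105 CPM, and those with 100 µM at 60 min stay between 0.677 and 1.92 CPM.

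**Figure D2:**
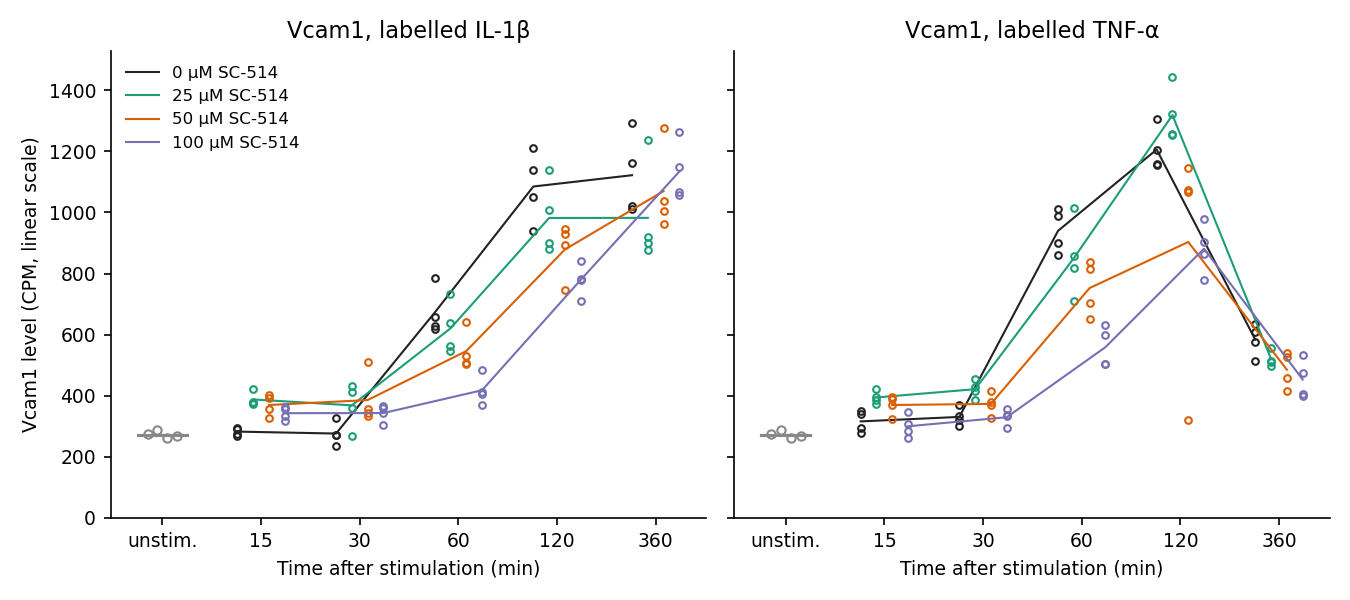
Vcam1 level (CPM, linear axis) in the same layout, with single libraries as circles and means of 4 libraries as lines. The level starts near 273 CPM, stays above 1011 CPM at 360 min of IL-1β without inhibitor and falls to between 513 and 636 CPM at 360 min of TNF-α. The lowest 50 µM point, 322 CPM at 120 min of TNF-α, is the library with 3839 counts.

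Ranked by mean level without inhibitor, Icam1 stood highest at 120 min of TNF-α (90.4 ± 9.75 CPM, SD, n = 4), then at 120 min of IL-1β (46.7 ± 9.26 CPM), with no overlap between the libraries of these groups or with the next. IL-1β at 360 min, TNF-α at 60 min, IL-1β at 60 min and TNF-α at 360 min followed at 22.3, 17.9, 10.7 and 7.89 CPM, and each neighbouring pair overlapped. For Vcam1 the order was TNF-α at 120 min (1206 ± 69.9 CPM), IL-1β at 360 min (1122 ± 134 CPM), IL-1β at 120 min (1085 ± 117 CPM) and TNF-α at 60 min (940 ± 71.6 CPM), where each neighbour overlapped the next. IL-1β at 60 min (672 ± 77.3 CPM) and TNF-α at 360 min (583 ± 52.5 CPM) came next and overlapped each other. The 15 and 30 min groups and the unstimulated group stood last for both genes. They overlapped one another in sequence, and the highest of them did not overlap TNF-α at 360 min.

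The stimuli were then compared directly without inhibitor. Icam1 was lower in IL-1β than in TNF-α at 120 min, with a log2 difference of -0.96 (SE 0.19, edgeR adjusted p = 0.000629), and higher at 360 min, with 1.49 (SE 0.33, edgeR adjusted p = 0.000552). Vcam1 was lower in IL-1β at 60 min, by -0.48 (SE 0.10, edgeR adjusted p = 0.00195), and higher at 360 min, by 0.95 (SE 0.11, edgeR adjusted p = 1.35e-12). For both genes, then, IL-1β libraries exceeded TNF-α libraries at 360 min with no overlap. The other differences were not called in edgeR's test: Icam1 at 60 min gave -0.73 (SE 0.31, adjusted p = 0.345) and Vcam1 at 120 min -0.15 (SE 0.10, adjusted p = 0.627). At 30 min Icam1 gave 0.17 (SE 1.01, adjusted p = 0.983) and Vcam1 -0.26 (SE 0.12, adjusted p = 0.490). The tested genes called in this comparison were 0.186% at 30 min, 1.26% at 60 min, 1.02% at 120 min and 9.46% at 360 min. The Icam1 call at 120 min was lost with DESeq2 (-0.95, adjusted p = 0.0919). That of Vcam1 at 60 min was lost without number 2 (adjusted p = 0.0563) or number 3 (adjusted p = 0.156).

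SC-514 at 100 µM lowered Icam1 at 60 min of either stimulus to levels that overlapped those of unstimulated cells. At 60 min of IL-1β with 100 µM the Icam1 libraries had 0.655, 1.75, 0 and 0.848 CPM. At 60 min of TNF-α with 100 µM they had 1.92, 1.60, 0.677 and 1.43 CPM. Both sets overlapped the unstimulated libraries and lay below all libraries without inhibitor. The changes against 0 µM were -3.59 (SE 0.59, edgeR adjusted p = 2.85e-07) and -3.60 (SE 0.46, edgeR adjusted p = 3.97e-11) on the log2 scale. The counts behind them fell from 66 to 4 and from 81 to 9, giving count ratios of 0.0745 (95% counting interval 0.0197 to 0.200) and 0.0772 (0.0341 to 0.154). The change in IL-1β was -2.86 without number 1 and -4.36 without number 2.

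At 120 min Icam1 was lowered by the inhibitor in both stimuli but stood above the unstimulated libraries. With 100 µM and IL-1β the libraries had 10.4, 21.9, 4.38 and 15.0 CPM, and with TNF-α 44.2, 46.7, 50.7 and 53.0 CPM. The IL-1β libraries spread widely, the TNF-α libraries did not, and each set lay below its 0 µM libraries. The changes were -1.82 (SE 0.27, edgeR adjusted p = 9.22e-09) in IL-1β and -0.89 (SE 0.18, edgeR adjusted p = 4.28e-05) in TNF-α.

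At 360 min the stimuli parted for Icam1. With 100 µM and IL-1β the libraries had 8.70, 4.39, 5.89 and 6.62 CPM, all below those without inhibitor. With TNF-α they had 8.14, 6.33, 18.3 and 8.96 CPM and overlapped those without inhibitor. The change was -1.78 (SE 0.35, edgeR adjusted p = 1.34e-05) in IL-1β and 0.39 (SE 0.36, edgeR adjusted p = 0.454) in TNF-α. The difference between these effects passed its own test at -2.17 (SE 0.50, edgeR adjusted p = 0.00492), where 1.98% of tested genes were called. That call was lost without number 3 (-1.85, adjusted p = 0.0830), which holds the high TNF-α library of 18.3 CPM. The difference was not called at 60 min (0.01, edgeR adjusted p = 1, with 0.697% of genes called) or 120 min (-0.93, SE 0.33, edgeR adjusted p = 0.186, with 1.07% of genes called).

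Vcam1 was lowered at 60 and 120 min and stayed above the unstimulated libraries in all 6 groups with 100 µM at 60, 120 and 360 min. With 100 µM at 60 min its libraries had 486, 370, 412 and 404 CPM in IL-1β and 599, 631, 502 and 503 CPM in TNF-α. At 120 min they had 842, 711, 780 and 784 CPM and 903, 980, 780 and 863 CPM. All of these lay between the unstimulated and the 0 µM libraries. At 360 min of IL-1β with 100 µM the libraries had 1264, 1067, 1148 and 1057 CPM, inside the range of the 0 µM group. At 360 min of TNF-α they had 406, 399, 533 and 474 CPM, where the highest reached into the 0 µM range.

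The Vcam1 changes at 60, 120 and 360 min were -0.68 (SE 0.11, adjusted p = 1.37e-07), -0.48 (SE 0.10, adjusted p = 0.000104) and 0.02 (SE 0.10, adjusted p = 0.927) in IL-1β by edgeR. In TNF-α they were -0.75 (SE 0.10, adjusted p = 2.57e-09), -0.45 (SE 0.10, adjusted p = 0.000183) and -0.36 (SE 0.11, adjusted p = 0.00565) by the same edgeR test. So the inhibitor's effect on Vcam1 passed the test at 360 min in TNF-α and not in IL-1β, but the difference between the stimuli did not pass (0.38, SE 0.15, edgeR adjusted p = 0.170). It did not pass at 60 min (0.07, SE 0.15, adjusted p = 0.950) or 120 min (-0.03, SE 0.14, adjusted p = 0.983) in edgeR's test either. The 360 min call in TNF-α was lost with RLE factors (-0.24, adjusted p = 0.0739), with DESeq2 (-0.24, adjusted p = 0.1002) and without number 2 (-0.28, adjusted p = 0.0971). In that comparison RLE factors moved the median of all tested genes from 0.02 to 0.14, a shift of 0.12, and relative to that median Vcam1 changed by -0.38 under either scaling. With TMM factors, 8 of 9 fibroblast markers were also called lower in the same comparison, with a median change of -0.52. There, 26.8% of all tested genes were called in either direction, and the marker calls with RLE factors or DESeq2 are not given here. Their summed level was 5136 to 5652 CPM with 100 µM and 6990 to 7224 CPM without, and their part in the Vcam1 result was not tested.

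At 15 and 30 min of IL-1β, before either gene was called against the unstimulated group, the Vcam1 means were higher with 100 µM than without. At 30 min the libraries had 365, 305, 360 and 342 CPM against 327, 271, 272 and 234 CPM, and at 15 min 358, 317, 362 and 335 CPM against 295, 270, 290 and 275 CPM. The 15 min sets did not overlap and the 30 min sets did. The change of 0.31 at 30 min (SE 0.12, edgeR adjusted p = 0.0402) was called, and that of 0.28 at 15 min (SE 0.12, edgeR adjusted p = 0.0664) was not. The 30 min call was lost without number 2, 3 or 4 (adjusted p = 0.0617, 0.179 and 0.235). The 15 min change was called with RLE factors, with DESeq2, without the low-count filter, without the shallow libraries and with a block for library number (adjusted p = 0.00368 to 0.0499). In TNF-α the changes were -0.08 (SE 0.12, edgeR adjusted p = 0.685) at 15 min and 0.00 (SE 0.12, edgeR adjusted p = 0.992) at 30 min. Icam1, with 2 to 8 counts a group at these times, was not called in any of the 4 comparisons.

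At 100 µM the share of all tested genes called was high, so a call here sets a gene less apart than a call against the unstimulated group. In IL-1β it was 24.8%, 22.5%, 25.9%, 30.4% and 29.5% at 15, 30, 60, 120 and 360 min. In TNF-α it was 22.2%, 17.9%, 22.0%, 26.5% and 26.8%.

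Cells with 100 µM and a stimulus were also set against the unstimulated group. At 60 min Icam1 was not called in IL-1β (0.01, edgeR adjusted p = 0.996) or in TNF-α (0.74, SE 0.90, edgeR adjusted p = 0.605). The 4 counts of each group in IL-1β give a ratio of 1.01 with a 95% counting interval of 0.188 to 5.43, so a change inside that range was not detectable at this depth. At 120 and 360 min Icam1 was called higher, by 3.88 and 2.85 in IL-1β and by 5.76 and 3.54 in TNF-α on the log2 scale (edgeR adjusted p = 5.53e-08, 0.00052, 3.94e-25 and 2.01e-07). At 360 min these became 2.24 without number 1 and 3.52 without number 2 in IL-1β, and 4.25 without number 2 in TNF-α.

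Vcam1 was called higher than in the unstimulated group in all 6 of these comparisons. The log2 changes were 0.62, 1.51 and 2.06 at 60, 120 and 360 min in IL-1β (edgeR adjusted p = 9.71e-06, 5.01e-23 and 6.47e-34). They were 1.03, 1.69 and 0.73 in TNF-α (edgeR adjusted p = 1.47e-13, 1.88e-27 and 4.91e-08). The tested genes called were 22.2%, 22.7% and 30.4% in IL-1β and 23.1%, 24.5% and 28.9% in TNF-α at the same times.

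At 60, 120 and 360 min of IL-1β the Icam1 means were lower at each step of SC-514, while at 60 and 120 min of TNF-α the 25 µM means lay within the spread of the 0 µM libraries. At 120 min of IL-1β the Icam1 means were 46.7 ± 9.26, 25.2 ± 5.76, 20.2 ± 1.36 and 12.9 ± 7.41 CPM (SD, n = 4) at 0, 25, 50 and 100 µM. At 120 min of TNF-α they were 90.4 ± 9.75, 90.7 ± 2.71, 44.8 ± 32.0 and 48.7 ± 3.94 CPM. The 50 µM value includes the library of 3839 counts, which had 0 Icam1 counts where 3 counts equal 322 CPM, and without it the mean was 59.7 ± 13.9 CPM (n = 3). In IL-1β all 4 libraries at 25 µM lay below those at 0 µM, and in TNF-α they overlapped.

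At 25 µM the only call was Icam1 at 120 min of IL-1β, at -0.89 (SE 0.22, edgeR adjusted p = 0.00177). Icam1 in IL-1β at 60 and 360 min gave -0.72 (SE 0.36, edgeR adjusted p = 0.192) and -0.84 (SE 0.29, edgeR adjusted p = 0.0617). The latter was called without the low-count filter (-0.83, adjusted p = 0.0326). In TNF-α the Icam1 changes at 25 µM were -0.06, 0.00 and 0.55 at 60, 120 and 360 min (edgeR adjusted p = 0.943, 1 and 0.558). Whether the stimuli differ at 25 µM was not tested. Vcam1 changes at 25 µM lay between -0.19 and 0.13, with no call in edgeR's test. The tested genes called at 25 µM were 12.1%, 13.9% and 5.76% in IL-1β and 9.65%, 8.82% and 2.73% in TNF-α at 60, 120 and 360 min.

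At 50 µM Icam1 was called lower at 60, 120 and 360 min of IL-1β, by -2.03, -1.20 and -1.17 (edgeR adjusted p = 0.000374, 3.01e-05 and 0.00367). It was called lower at 60 and 120 min of TNF-α, by -1.13 and -0.61 (edgeR adjusted p = 0.00983 and 0.0248), and not at 360 min (0.06, edgeR adjusted p = 0.951). Without the library of 3839 counts the change at 120 min of TNF-α was also -0.61 (edgeR adjusted p = 0.0265). Vcam1 was called lower at 60 and 120 min of IL-1β, by -0.30 and -0.31 (edgeR adjusted p = 0.0341 and 0.0200), and at 60 min of TNF-α, by -0.32 (edgeR adjusted p = 0.0187). The other Vcam1 changes were -0.07 at 360 min of IL-1β, and -0.15 and -0.27 at 120 and 360 min of TNF-α (edgeR adjusted p = 0.735, 0.402 and 0.107). At 120 min of TNF-α it was -0.14 without the shallow library (edgeR adjusted p = 0.454). The tested genes called at 50 µM were 17.5%, 21.6% and 14.4% in IL-1β and 18.4%, 13.5% and 9.50% in TNF-α. Of the 8 calls at 50 µM, those of Icam1 at 120 and 360 min of IL-1β held without each library number. The Icam1 call was lost at 60 min of IL-1β without number 1 (-1.48, adjusted p = 0.0608), at 60 min of TNF-α without number 3 (-0.86, adjusted p = 0.0881) and at 120 min of TNF-α without number 3 or 4 (-0.64 and -0.48) or with DESeq2 (-0.59, adjusted p = 0.241). Every Vcam1 call at 50 µM was lost without number 3 or number 4, with changes of -0.25 to -0.34, and those in IL-1β also without number 2 (-0.29 and -0.31).

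The share of the increase that remained under SC-514 was computed per library, as its rise over the unstimulated mean in percent of the mean rise at 0 µM. It is a description with no test. Its baseline is the unstimulated group without inhibitor, since no group had inhibitor alone. At 15 and 30 min of IL-1β the Vcam1 means were 342.7 and 343.1 CPM with 100 µM, beside 282 and 276 CPM at 0 µM. In TNF-α they were 300 and 329 CPM with 100 µM, beside 316 and 331 CPM at 0 µM. The part of an inhibitor effect on the baseline in the kept share was not tested. The SDs take the mean rise at 0 µM as fixed. At 60 min the 0 µM libraries themselves ran from 44.7% to 211.5% for Icam1 in IL-1β and from 38.4% to 171.4% in TNF-α. For Vcam1 they ran from 86.4% to 128.3% and from 88.1% to 110.9%. At 60 min Icam1 kept 58.6 ± 20.7%, 17.8 ± 7.63% and -0.308 ± 7.34% (SD, n = 4) of its increase at 25, 50 and 100 µM in IL-1β, and 96.0 ± 37.7%, 42.9 ± 31.2% and 3.29 ± 3.09% in TNF-α. Vcam1 kept 87.0 ± 21.3%, 68.4 ± 16.4% and 36.3 ± 12.2% in IL-1β and 86.6 ± 18.8%, 71.9 ± 13.3% and 42.9 ± 9.94% in TNF-α. At 100 µM and 60 min the lowest Vcam1 library kept 24.3% in IL-1β and 34.4% in TNF-α, above the highest Icam1 library at 9.22% and 6.32%.

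The mean kept share at 100 µM was higher at 120 min than at 60 min for both genes and stimuli. From 120 to 360 min it was nearly level for Icam1 in IL-1β, higher for Icam1 in TNF-α and Vcam1 in IL-1β, and lower for Vcam1 in TNF-α. For Icam1 it was 26.3 ± 16.2% at 120 min and 26.0 ± 8.37% at 360 min of IL-1β, and 53.4 ± 4.40% and 136 ± 75.8% for TNF-α. Vcam1 kept 62.4 ± 6.59% and 101 ± 11.3% in IL-1β and 65.3 ± 8.90% and 58.1 ± 20.3% in TNF-α. The wide Icam1 values at 360 min of TNF-α divide by a rise of few counts (34 at 0 µM), and at 25 µM the libraries there ran from 73.1% to 320.2%.

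**Figure D3:**
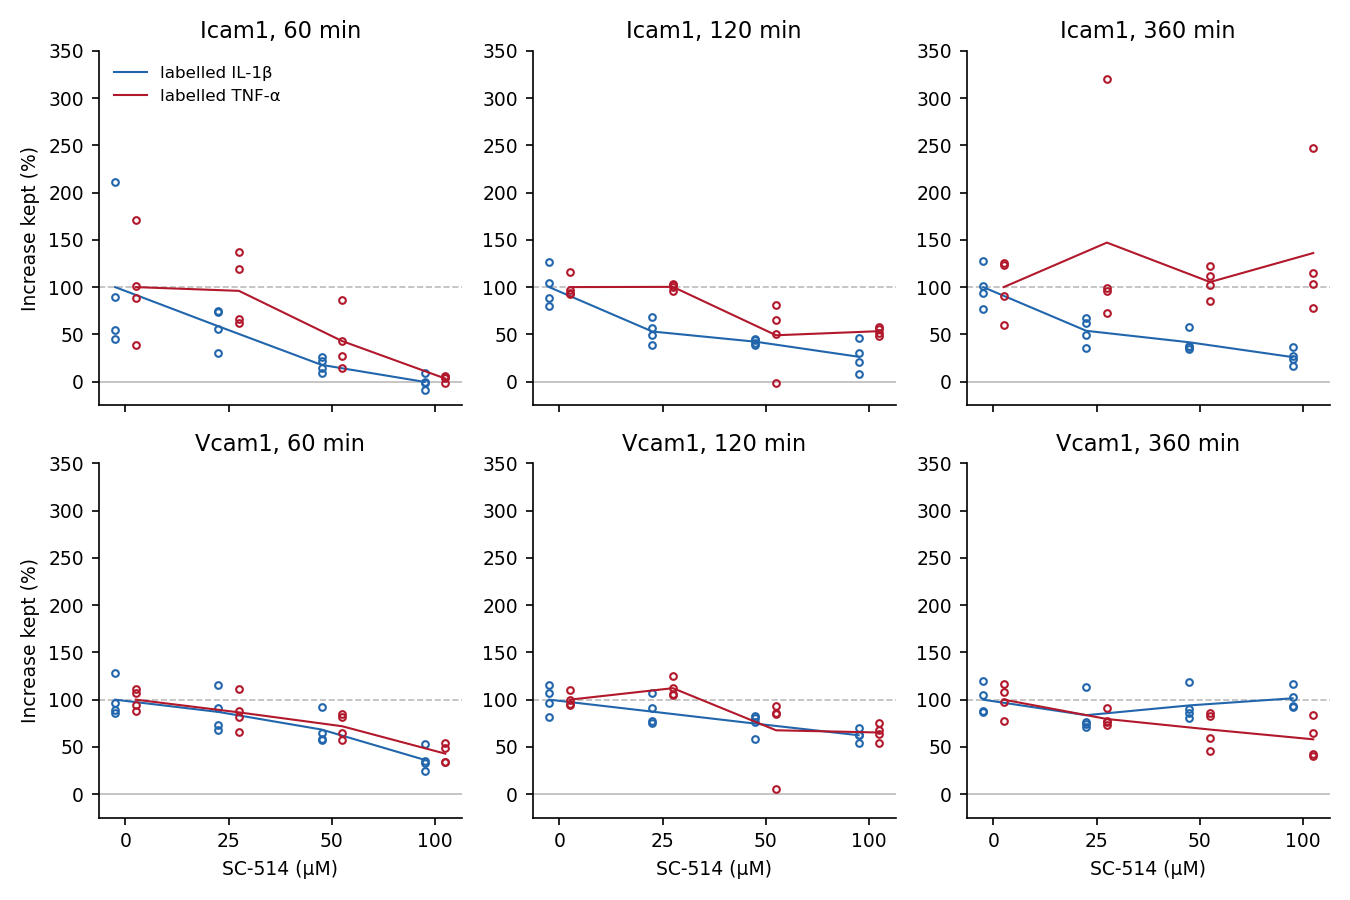
Share of the increase over the unstimulated mean kept under SC-514 (percent, linear axis) against SC-514 concentration (µM), for Icam1 (top) and Vcam1 (bottom) at 60, 120 and 360 min. Circles are single libraries and lines join the means of 4 libraries, blue for IL-1β and red for TNF-α, and the lowest red point at 50 µM and 120 min is the library of 3839 counts. The dashed line is 100% and the solid line 0%. At 60 min and 100 µM the Icam1 means are -0.308% and 3.29%, and the Vcam1 means 36.3% and 42.9%.

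Whether the genes changed unequally was tested on the log2 ratio of their counts, with a pseudocount of 0.5, by an exact two-sided permutation test of 4 against 4 libraries. Its smallest possible p is 0.0286, and p-values were adjusted over 12 tests. The ratio of Icam1 to Vcam1 rose over the unstimulated group in all 6 stimulated groups without inhibitor, by 1.88, 3.49 and 2.39 at 60, 120 and 360 min of IL-1β and by 2.20, 4.30 and 1.87 for TNF-α (exact permutation p = 0.0286 and adjusted p = 0.0343 for each). With 100 µM it fell, with differences of -2.47, -1.52 and -1.76 in IL-1β and -2.56 at 60 min of TNF-α and the same exact permutation p. At 120 and 360 min of TNF-α the differences were -0.44 and 0.65 (exact permutation p = 0.0571, adjusted p = 0.0571). With a pseudocount of 1 the first of these, 60 min of IL-1β against unstimulated, gave 1.42 (exact permutation, adjusted p = 0.0571). Without number 1 the rise at 60 min was 1.04 in IL-1β and 1.37 in TNF-α, and 3.69 at 120 min of TNF-α, and without number 2 the fall at 60 min of IL-1β was -3.12.

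Over the 41 groups the mean log2 levels of the genes moved together (Pearson r = 0.901, Spearman rho = 0.874). This was also so among the 20 IL-1β groups (r = 0.920) and the 20 TNF-α groups (r = 0.923). These are descriptions across groups that share stimuli and library sets. Among 10765 other tested genes Vcam1 had the highest correlation with Icam1, and Icam1 ranked 7 for Vcam1.

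**Figure D4:**
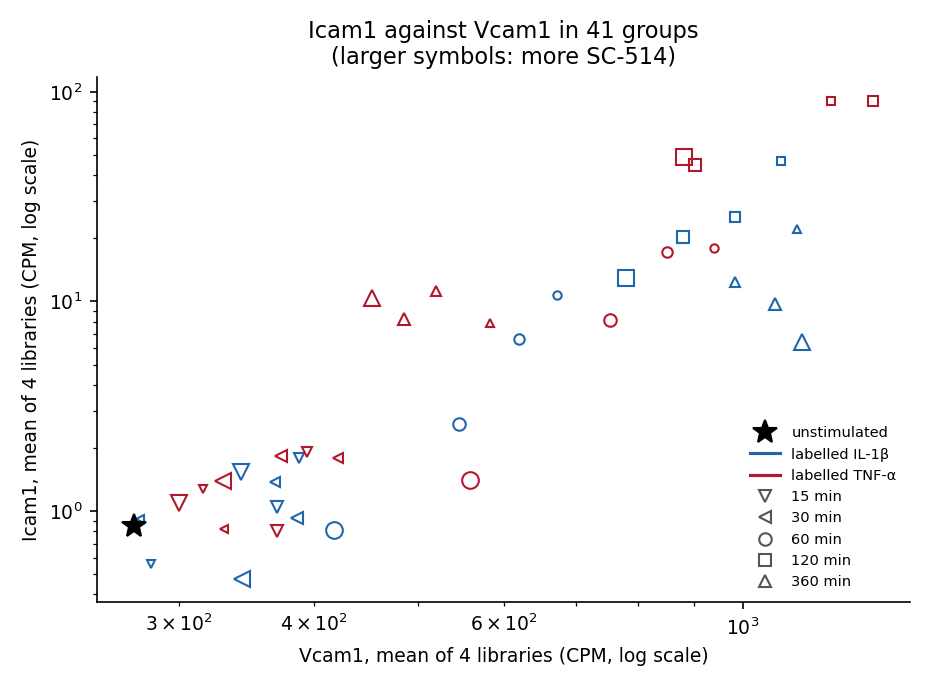
Mean Icam1 level against mean Vcam1 level in the 41 groups (CPM, both axes logarithmic), with each point the mean of 4 libraries. Colour marks the stimulus, shape the time and larger symbols more SC-514, and the star is the unstimulated group at 0.844 and 273 CPM. The correlation of the log2 means was 0.901.

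The next genes by likeness to Icam1 were Ripk2, a kinase of NOD receptor signalling (r = 0.894), Tnfaip2 (r = 0.889), the inflammasome sensor Nlrp3 (r = 0.885) and Gch1, the first enzyme of tetrahydrobiopterin synthesis (r = 0.858). Tnfaip2 rose from 148 CPM unstimulated to 806 CPM at 120 min of TNF-α and stood at 578 CPM there with 100 µM. Ripk2 went from 31.0 to 162 CPM and stood at 90.4 CPM with 100 µM. Nlrp3 had means of at most 17.7 CPM among the groups without or with 100 µM at 60 to 360 min.

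Most like Vcam1 were Acod1, the enzyme that makes itaconate (r = 0.920), Ccrl2, an atypical chemokine receptor (r = 0.920), and Tnip1, a partner of the NF-κB inhibitor A20 (r = 0.909). Rela, the NF-κB subunit p65 (r = 0.905), and the chemokine Cxcl10 (r = 0.902) followed. At 360 min of IL-1β the Cxcl10 mean was 1462 CPM with 100 µM and 588 CPM without, and that of Acod1 13.5 and 41.5 CPM. Ccrl2 stayed at or under 14.8 CPM in the groups named here.

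A list of 16 leukocyte adhesion ligands, which holds Icam1 and Vcam1 themselves, had 8 genes that passed the filter. At each of 60, 120 and 360 min and in each stimulus, 3 of the 8 rose, and these were Icam1, Vcam1 and Cx3cl1, the membrane-bound chemokine fractalkine. Over all tested genes, 3.36%, 12.5% and 21.7% were called in either direction at these times of IL-1β, and 5.41%, 14.2% and 5.42% for TNF-α. The Cx3cl1 call at 60 min was lost in TNF-α with RLE factors (0.48, adjusted p = 0.083) and in both stimuli with DESeq2. In IL-1β Pecam1, for the endothelial and platelet adhesion molecule PECAM-1, fell at 120 and 360 min with changes of -1.42 and -1.18 (edgeR adjusted p = 0.0155 and 0.0385), and both calls were lost with DESeq2. Pecam1 was near the detection limit, with a median of 4.14 CPM over libraries of normal depth, where 3 counts equal 1.18 to 3.41 CPM. Cd99l2, for a relative of the adhesion molecule CD99, fell at 360 min of IL-1β with -0.40 (edgeR adjusted p = 0.0147). Pecam1 and Cd99l2 were named after their values were seen, as the only members that fell. Cx3cl1 went from 40.4 ± 6.32 CPM unstimulated to 82.0 ± 10.7 CPM at 120 min of IL-1β and 105 ± 12.8 CPM at 120 min of TNF-α (SD, n = 4), log2 changes of 1.03 and 1.39 (edgeR adjusted p = 3.27e-08 and 6.03e-14). With 100 µM it stood at 39.4 ± 7.18 and 39.5 ± 5.32 CPM at these times, -1.05 and -1.42 against 0 µM (edgeR adjusted p = 5.07e-08 and 6.08e-16). With 100 µM, 5 of the 8 fell at 120 min of IL-1β and 4 at 120 min of TNF-α, and none rose. Icam1 and Vcam1 were among those that fell in both stimuli. There, 30.4% and 26.5% of all tested genes were called in either direction in IL-1β and TNF-α. With RLE factors Cd99l2 rose there, by 0.31 in IL-1β and 0.33 in TNF-α (edgeR adjusted p = 0.046 and 0.0204). The list's median change with 100 µM, Icam1 and Vcam1 included, was -0.74 at 120 min of IL-1β and -0.49 at 120 min of TNF-α. The median over all tested genes was 0.03 and 0.03.

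Of the 9 genes of integrin chains that bind ICAM-1 or VCAM-1, 4 passed the filter. Itgb1, the β1 partner of α4, rose at 60 min of both stimuli, by 0.28 and 0.32 (edgeR adjusted p = 0.0266 and 0.00471), and was the only list member called there. Over all tested genes, 3.36% and 5.41% were called in either direction in IL-1β and TNF-α. The Itgb1 call in IL-1β was lost with RLE factors (0.26, adjusted p = 0.0518), and both Itgb1 calls were lost with DESeq2 (0.26 and 0.27, adjusted p = 0.0907 and 0.0525). With 100 µM it fell by 0.45 and 0.44 at 60 min (edgeR adjusted p = 2.24e-06 and 4e-06). Itgb7, the other partner of α4, was not called against the unstimulated group and with 100 µM fell by 1.20 at 60 min of IL-1β (edgeR adjusted p = 0.00321). Itga4, for the α4 chain itself, was called lower with 100 µM at 60 min of IL-1β (-1.68, edgeR adjusted p = 0.0293, lost with DESeq2 at adjusted p = 0.0564) and higher at 120 min (1.35, edgeR adjusted p = 0.0249), and it was named after its values were seen. With 100 µM 3, 2 and 1 of the 4 fell and 0, 1 and 0 rose at 60, 120 and 360 min of IL-1β. In TNF-α 1, 1 and 2 fell at these times and none rose. Of all tested genes, 25.9%, 30.4% and 29.5% were called in either direction in IL-1β, and 22.0%, 26.5% and 26.8% in TNF-α. With DESeq2, 2 fell at 60 min of IL-1β, and 0 and 1 fell at 120 and 360 min of TNF-α. With RLE factors 0 fell at 120 min of TNF-α. Itga9, with 4.24 ± 1.77 CPM unstimulated, was not called at 60, 120 or 360 min in either kind of comparison.

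Among 11 genes of membrane anchors and shedding enzymes, 10 passed the filter, and 3 rose at 120 min in each stimulus with none falling. At that time 12.5% and 14.2% of all tested genes were called in IL-1β and TNF-α. With RLE factors or DESeq2, 1 rose there in IL-1β and 2 in TNF-α. Ezr, whose product ezrin links the tails of both adhesion molecules to actin, rose by 0.58 and 0.64 at 120 min of IL-1β and TNF-α (edgeR adjusted p = 2.13e-08 and 4.1e-10). With 100 µM it stood at 160 ± 16.2 and 166 ± 16.4 CPM, beside 205 ± 6.32 CPM unstimulated, and fell by 0.93 and 0.95 against 0 µM (edgeR adjusted p = 6.28e-17 and 2.94e-19). Msn, for the related moesin, fell by 0.53 and 0.62 with 100 µM at 120 min (edgeR adjusted p = 7.4e-14 and 3.03e-18). Adam17, the protease that sheds VCAM-1, rose by 0.62 at 360 min of IL-1β (edgeR adjusted p = 8.78e-06), where the change with 100 µM was 0.08 (edgeR adjusted p = 0.652). With 100 µM, 4 of 10 list members fell and none rose at 120 min in each stimulus, where 30.4% and 26.5% of all tested genes were called in either direction in IL-1β and TNF-α. With RLE factors 2 rose there in TNF-α, Rdx (0.17, adjusted p = 0.0306) and Adam10 (0.21, adjusted p = 0.0402), named after their values were seen.

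All 10 transcription factors known to act on either promoter passed the filter. In IL-1β 4, 6, 8 and 7 of them rose at 30, 60, 120 and 360 min, and in TNF-α 5, 7, 7 and 2, with none falling. Of all tested genes, 0.957%, 3.36%, 12.5% and 21.7% were called in IL-1β at these times, and 0.659%, 5.41%, 14.2% and 5.42% in TNF-α. At 30 min of IL-1β 2 rose with RLE factors or DESeq2. With either, 6 rose at 360 min of IL-1β, and with DESeq2 6 rose at 60 min of TNF-α. Nfkb1, the NF-κB subunit p50, was highest at 120 min, as Icam1 was, with 202 ± 2.80 CPM in IL-1β and 309 ± 20.5 CPM in TNF-α against 61.9 ± 3.66 CPM unstimulated. It fell by 0.94 and 1.20 with 100 µM at that time (edgeR adjusted p = 2.06e-12 and 5.43e-22). Irf1, an interferon regulatory factor, was highest at 60 min, at 691 ± 60.6 and 1058 ± 39.9 CPM, and fell by 0.86 and 0.84 with 100 µM there (edgeR adjusted p = 1.72e-05 and 1.44e-05). At 120 min it was higher with 100 µM than without, by 0.63 and 1.17 (edgeR adjusted p = 0.00251 and 3.6e-08). Jun, an AP-1 subunit, likewise was higher with 100 µM at 120 min, by 0.88 and 1.28 (edgeR adjusted p = 2.12e-07 and 6.18e-13).

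Neighbouring genes were checked for shared reads. Icam4 and Icam5 lie next to Icam1 on the same strand and held 37 and 518 counts over all libraries, with at most 2 and 10 in a library, against 2900 for Icam1. The antisense genes Gm47079, which overlaps Icam1, and Gm43109, which overlaps Vcam1, were not analysed here. Whether counting used the strand is not given in the sources used here, so reads of a gene and its antisense partner cannot be told apart.

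Libraries of 1 number stood apart for Vcam1. Among the 19 IL-1β groups of normal depth, number 1 had the highest Vcam1 level in 18, where the median tested gene had 5 such groups and 0.07% of tested genes had as many. Its level was 1.22 times the mean of the other 3 libraries (median of the 19 groups). In TNF-α number 2 was highest in 11 of 19 groups, with a median ratio of 1.10, and 5.12% of tested genes had as many. For Icam1 number 1 was highest in 8 of 19 groups in each stimulus, and 17.6% and 13.1% of tested genes had as many in IL-1β and TNF-α. Its median ratio to the other numbers was 1.37 in IL-1β and 1.16 in TNF-α, beside 1.22 and 1.02 for number 1 in Vcam1. Many of these groups held few Icam1 counts, and the Icam1 ratios in IL-1β ran from 0 to 5.12. The part of library number in the results was not tested beyond the alternatives given.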

How the data were processed

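The authors deposited read counts per gene, whole numbers in 164 columns, and each column is a library described by 4 of the 656 sample records. Per the submitters' processing notes, Bowtie2 and the GRCm38 (mm10) genome were used, and for the counting tool, its annotation and its strand setting this is not given in the sources used here. Of the gene identifiers, 21858 matched a reference list of gene symbols and 212 did not. Gene positions came from GENCODE M21 (GRCm38).

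Counts of the 10766 genes that passed filterByExpr were scaled by TMM (factors 0.934 to 1.08, up to 2.44 in the 2 shallow libraries). One robust quasi-likelihood model was fitted to all 41 groups in edgeR 4.0.16 (R 4.3.3), with 123 residual degrees of freedom and a biological coefficient of variation of 0.0799. P-values were adjusted by Benjamini-Hochberg within each of 45 comparisons, with 0.05 as threshold, and "called" means below it. The script was checked on simulated counts. Exact permutation tests used Python with numpy.

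The genes, lists, named genes and tests were chosen with earlier results of these data known. Beside the members, the rule named the 5 tested genes most correlated with each over the group means of log2(CPM + 1), up to 3 genes of each list with the smallest p against the unstimulated group, and neighbouring genes. Alternatives were RLE factors, DESeq2 1.42.0, no filter on low counts, no shallow libraries (under 100000 counts), a block for library number, leaving out each number, and pseudocounts of 0.25 and 1 for the ratio. None of the 246 pairs of libraries within a group held identical counts, and 0 columns were left unused. Libraries of the same number were not treated as paired.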

Additional observations from a re-analysis of the deposited data

Results flagged for a closer look

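In 7 of 82 sets of 4 libraries (2 genes in 41 groups), 1 library stood apart from the other 3 by Dixon's criterion, and chance alone does this in about 1 of 20 sets. For Icam1 these were the highest libraries of IL-1β 50 µM 360 min (13.1 CPM), TNF-α 0 µM 120 min (105 CPM) and TNF-α 25 µM 360 min (23.4 CPM). For Vcam1 they were the highest libraries of IL-1β 25 µM 15 min (421 CPM) and IL-1β 25 µM 360 min (1236 CPM). The highest Vcam1 library of IL-1β 50 µM 30 min (510 CPM) and the lowest of TNF-α 50 µM 120 min (322 CPM) are the 2 libraries of 12191 and 3839 counts. The high Vcam1 libraries of IL-1β are all number 1.

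The stimuli differed by a direct test in 4 comparisons without inhibitor. On the log2 scale, IL-1β minus TNF-α was -0.48 for Vcam1 at 60 min, -0.96 for Icam1 at 120 min, 1.49 for Icam1 at 360 min and 0.95 for Vcam1 at 360 min. The effect of 100 µM SC-514 on Icam1 at 360 min also differed between the stimuli, by -2.17.

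Of the 8 groups that entered no comparison, those with 25 or 50 µM at 15 and 30 min, 7 had all 4 Vcam1 libraries above every unstimulated library, and these differences were not tested. The share of all tested genes that do this is not given here, so the count does not set Vcam1 apart. The unstimulated libraries also carry a different column prefix. The Vcam1 means were 388 and 370 CPM at 15 min of IL-1β with 25 and 50 µM, and 386 CPM at 30 min with 50 µM. The last mean includes the library of 12191 counts, which held 9 Vcam1 counts, and was 344 CPM without it (n = 3). In TNF-α they were 394 and 421 CPM at 15 and 30 min with 25 µM, and 370 and 373 CPM with 50 µM. At 0 µM the means were 282 and 276 CPM in IL-1β and 316 and 331 CPM in TNF-α at these times.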

How the results depend on the processing

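Of 90 log2 changes of Icam1 and Vcam1 (2 genes in 45 comparisons), none changed direction under an alternative while called, and 88 of 90 kept their side of the threshold with RLE factors, 86 without the filter on low counts and 89 without the shallow libraries. DESeq2 gave an adjusted p for 81, of which 75 kept their side, and none for the other 9. The changes that follow are log2, and the cause was not tested. The change of Vcam1 with 100 µM at 15 min of IL-1β became called with RLE factors (0.34), DESeq2 (0.34), no filter (0.29) and no shallow libraries (0.29). That of Vcam1 with 100 µM at 360 min of TNF-α was lost with RLE factors (-0.24) and DESeq2 (-0.24). DESeq2 also lost Vcam1 with 50 µM at 60 min of IL-1β (-0.30) and TNF-α (-0.29), Icam1 with 50 µM at 120 min of TNF-α (-0.59) and Icam1 in IL-1β against TNF-α at 120 min (-0.95). Without the filter, calls were gained for Icam1 with 25 µM at 360 min of IL-1β (-0.83), Vcam1 with 50 µM at 360 min of TNF-α (-0.25) and the difference of the 100 µM effect on Vcam1 at 360 min (0.34). The ratio of Icam1 to Vcam1 at 60 min of IL-1β was no longer called with a pseudocount of 1 (1.42).

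Leaving out each library number in turn ended 10 calls in at least 1 case. Over the 4 numbers, Icam1 with 50 µM ranged from -2.41 to -1.48 at 60 min of IL-1β, from -1.26 to -0.86 at 60 min of TNF-α and from -0.85 to -0.48 at 120 min of TNF-α. Vcam1 with 50 µM ranged from -0.31 to -0.29 at 60 min and -0.34 to -0.29 at 120 min of IL-1β, and from -0.37 to -0.25 at 60 min of TNF-α. With 100 µM Vcam1 ranged from 0.25 to 0.38 at 30 min of IL-1β and from -0.46 to -0.28 at 360 min of TNF-α. The difference between IL-1β and TNF-α for Vcam1 at 60 min ranged from -0.57 to -0.41, and that of the 100 µM effect on Icam1 at 360 min from -2.36 to -1.85.

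The replicate block, a term for library number, changed 1 of the 90 calls, Vcam1 with 100 µM at 15 min of IL-1β (0.28, edgeR adjusted p = 0.0402). This term was shared by all libraries, so it cannot describe number effects that differ by stimulus. The median ratio of Vcam1 to the other numbers was 1.22 in IL-1β and 1.02 in TNF-α for number 1. For number 2 it was 0.902 and 1.10. In 0 of 42 comparisons did every pair of same-numbered libraries correlate above 0.1 in their deviations from the group means (mean 0.0357, other pairs -0.0119). In 153 of 336 checks (8 libraries in each comparison) a library was closest to its own number among the 4 of the other group. That is more often than an even spread over the 4 would give. The numbers were not taken as pairs, and a test paired within a stimulus was not run.

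Counts of called genes moved by more than 1.5 times in 7 comparisons without the filter, in 12 with DESeq2, and in 7, 14, 21 and 19 without number 1, 2, 3 and 4. Without the filter the counts at 15 and 30 min were 141 and 272 in place of 18 and 103 for IL-1β, and 270 and 187 in place of 20 and 71 for TNF-α. They were 46 in place of 20 for IL-1β against TNF-α at 30 min, and 205 and 347 in place of 115 and 213 where the 100 µM effects of the stimuli were compared at 120 and 360 min. With DESeq2 they were 10, 60 and 230 in place of 18, 103 and 362 for IL-1β at 15, 30 and 60 min, and 385 in place of 584 for TNF-α at 360 min. With 25 µM they were 294 in place of 620 at 360 min of IL-1β, and 668 and 144 in place of 1039 and 294 at 60 and 360 min of TNF-α, and with 50 µM 586 in place of 1023 at 360 min of TNF-α. For IL-1β against TNF-α at 30, 60 and 120 min they were 10, 59 and 58 in place of 20, 136 and 110, and for the difference at 360 min 109 in place of 213. With RLE factors the split of higher against lower calls moved by more than 10 points in 25 of 45 comparisons, for 100 µM at 360 min of TNF-α from 1222 higher and 1661 lower to 2416 and 1099. Depth limits Icam1 in groups with few counts, where a change of several fold was not detectable.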
